A study of Mus musculus with 6 samples.

Results

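The genes described here encode the enzymes that write and erase N6-methyladenosine (m6A) on RNA and the protein that reads the mark in the nucleus. The 10 genes were taken as a named list: Mettl3, Mettl14, Wtap, Virma, Zc3h13, Rbm15 and Rbm15b for the writer complex, Fto and Alkbh5 for the erasers, and Ythdc1 for the nuclear reader. All 10 were among the 54532 genes listed and among the 19452 genes that had at least 10 reads over all libraries and were tested. They were measured in poly(A)+ RNA of mouse 3T3 cells, an established embryonic fibroblast line with no further genetic change named in the labels. The control group received a control siRNA and the SAFB KD group received siRNAs against Safb, Safb2 and Sltm together, with 3 libraries in each group. These targets encode related nuclear RNA-binding proteins, and the comparison asked how the mRNAs of the m6A machinery differed when all of them were depleted. The knockdown was transient and partial, the methods of the study name the mouse line as Flp-In 3T3, and proteins and the m6A mark itself were not analysed here.

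m6A is the most common internal modification of mRNA and is placed during or soon after transcription. METTL3 transfers the methyl group and METTL14 holds the RNA, while WTAP, VIRMA, ZC3H13 and RBM15 or RBM15B keep the complex in the nucleus and guide it to its sites. FTO and ALKBH5 remove the mark, and YTHDC1 binds it in the nucleus, where it takes part in splicing and export.

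The study describes human SAFB proteins as binding purine-rich RNA that holds the letters GAAGAA. For Safb1 in mouse 3T3 cells it reports the longer motif GAAGAAGA. The coding sequences of the 10 genes were searched for the shorter motif, GAAGAA, on the transcript strand, with overlapping matches counted. The windows below are shown because they carry the most matches in the reader gene Ythdc1, in the gene of the RNA-binding partner Mettl14, and in Rbm15b, whose mRNA changed most among the 10. Each is 60 bases of the longest coding sequence, 5′ to 3′, read from GENCODE transcripts of GRCm38, with GAAGAA in capitals. The Mettl14 window (chr3:123380681-123382766, minus strand) is spliced across 2 exons, whereas the windows of Ythdc1 (chr5:86817159-86817218, plus strand) and Rbm15b (chr9:106884340-106884399, minus strand) each lie in 1 exon.
Ythdc1: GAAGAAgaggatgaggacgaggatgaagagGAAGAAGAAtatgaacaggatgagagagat
Mettl14: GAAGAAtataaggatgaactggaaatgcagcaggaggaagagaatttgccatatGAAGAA
Rbm15b: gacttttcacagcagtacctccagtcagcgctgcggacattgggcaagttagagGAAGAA

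The window of Ythdc1 held 3 matches, that of Mettl14 held 2 and that of Rbm15b held 1. When the best window of each of 13226 tested coding genes was taken in the same way, it held at least 1 match in 71.9% of them, at least 2 in 21.4% and at least 3 in 4.85%. These genes had coding sequences of at least 300 bases. Longer sequences offer more windows, and coding length was not adjusted for. Purines made up 86.7% of the Ythdc1 window, 75.0% of the Mettl14 window and 56.7% of the Rbm15b window. The motif holds only purines, so choosing windows by their matches in itself raises this share. A match is a description of the letters and not a binding site, and binding was not analysed here.

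The 6 libraries held 33323307 to 53441129 counts, and the biological coefficient of variation was 3.49%. The targets fell to 49.7% (Safb), 64.0% (Safb2) and 61.5% (Sltm) of the control level (adjusted p from 6.56e-23 to 1.28e-14, edgeR quasi-likelihood test with Benjamini-Hochberg adjustment over all tested genes). Principal components were taken of log2 CPM, that is counts scaled to library size. The first component, with 76.8% of the variance, separated the groups, and on the second, with 7.55%, control 3 stood at -11.8 against 8.75 and 3.35 for the other controls. All 8 fibroblast markers were present, with a summed level of 18466 to 20382 CPM in control and 17306 to 17772 CPM in SAFB KD. Of these 6 were called lower, among them Pdgfrb, at 45.7% of the control level, and Col1a1, at 71.4%, whereas Fn1, the most abundant, and S100a4 were not called. Markers of epithelial cells (4 genes, Epcam and Krt18 at 0 in every library) summed to 0.179 to 0.320 CPM in control and 0.302 to 0.455 CPM in SAFB KD. Those of endothelial cells (3 genes, Kdr at 0) summed to 7.89 to 8.32 and 9.32 to 10.3 CPM, mostly Cdh5, which was not called. Pecam1 was called higher, from 0.862 ± 0.253 to 1.46 ± 0.439 CPM (edgeR adjusted p = 0.0187), although its groups overlapped. Markers of blood cells (3 genes, Ptprc with 4 reads in all) summed to 3.51 to 4.29 and 6.54 to 8.39 CPM. Nearly all of that was Cd68, which rose from 3.82 ± 0.333 to 7.54 ± 1.04 CPM (edgeR adjusted p = 1.14e-09). The part of these shifts in the results was not tested. In bulk RNA, fewer cells of a type and less RNA per cell cannot be told apart.

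Of the 10 genes, 4 were called lower in SAFB KD (Virma, Zc3h13, Rbm15b and Fto), 2 were called higher (Rbm15 and Ythdc1), and 4 were not called (Mettl3, Mettl14, Wtap and Alkbh5), at an adjusted p under 0.05. Without control 3, which stood apart on the second component, 5 were called lower and 1 higher. Leaving out control 1 instead gave 4 lower and 1 higher. Without control 2 or SAFB KD 1, or with DESeq2, 4 were called lower and 0 higher. The share called, 6 of 10, compares with 41.5% of all tested genes, of which 21.4% were higher and 20.1% lower. Genes at a mean of 10 CPM or more, as all 10 were, had a share of 65.7%, so that the share among the m6A genes was near that of genes measured with like precision. The groups did not overlap for the same 6 genes and for 49% of all tested genes, a share not taken for genes at 10 CPM or more. The median log2 fold change was -0.06 over the 10 genes and 0.01 over all tested genes. Every change was small, from -0.42 for Rbm15b to 0.14 for Rbm15. None of the 10 was called beyond 2-fold by glmTreat of edgeR, where 1.22% of all tested genes were, and none was by DESeq2 or limma-voom or at an unadjusted p under 0.05 against that limit.

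**Figure D1:**
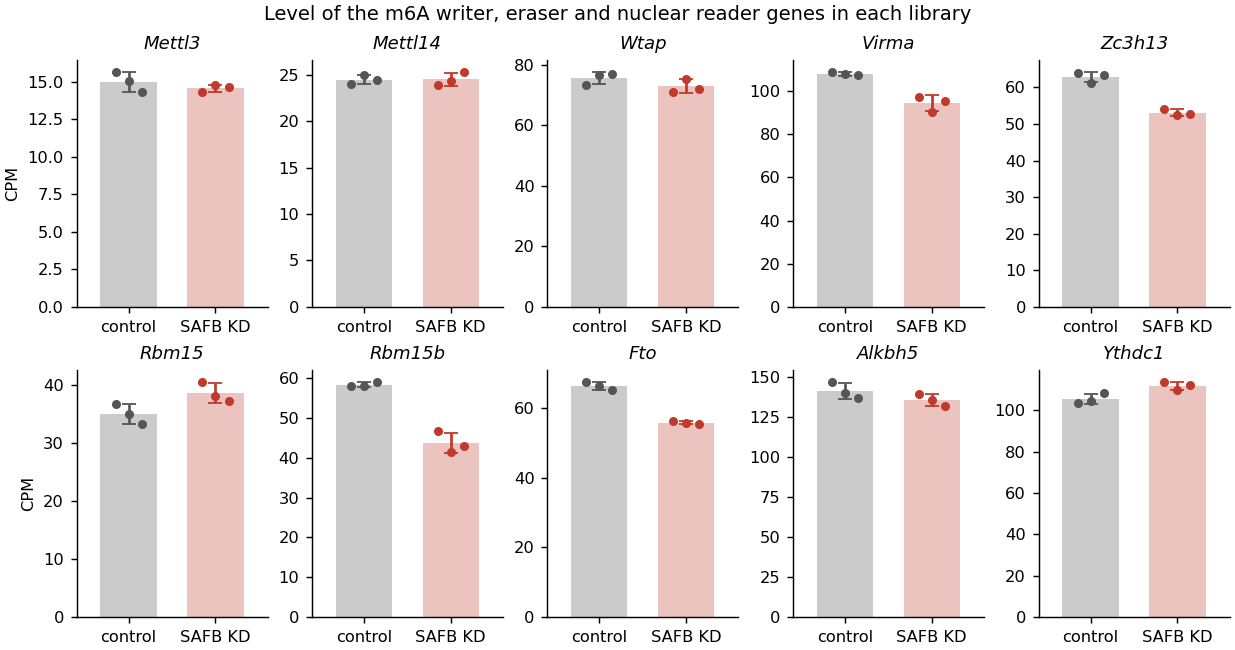
Level in CPM (y axis, from 0, one scale per gene) of each of the 10 genes in every library, as points, with bars for the group mean and error bars for the SD of 3 libraries (control in grey, SAFB KD in red). Points of SAFB KD lie below all control points for Virma, Zc3h13, Rbm15b and Fto, and above them for Rbm15 and Ythdc1, and the groups overlap for the other four.

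Neither gene of the catalytic core was called. Mettl3, the methyltransferase gene (ENSMUSG00000022160, chromosome 14, 52294841 to 52305128, minus strand, GRCm38), was at 15.6, 15.1 and 14.3 CPM in control 1 to 3 and at 14.3, 14.8 and 14.7 CPM in SAFB KD 1 to 3. The groups overlapped, and the log2 fold change was -0.04 (SE 0.067, 95% interval -0.18 to 0.09, edgeR adjusted p = 0.665). Mettl3 was the least covered of the 10, with 480 to 769 reads per library, and had the widest interval.

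Mettl14 (ENSMUSG00000028114, chromosome 3, 123368297 to 123386108, minus strand), whose product forms the heterodimer with METTL3, was at 24.0, 25.0 and 24.5 CPM in control and 24.0, 24.3 and 25.3 CPM in SAFB KD. The libraries of both groups intermingled, with a log2 fold change of 0.00 (SE 0.055, 95% interval -0.11 to 0.12, edgeR adjusted p = 0.962). The sign of this value turned in 6 of 13 alternative settings, reaching -0.04 when libraries were scaled by total counts only. The ratio of Mettl3 to Mettl14, taken within each library per kilobase of exon, was 0.853 to 0.951 in control and 0.846 to 0.886 in SAFB KD. These ranges overlapped, and the log2 ratio differed by -0.04 (2-sided exact permutation p = 0.5, adjusted p = 0.5 over 3 ratios). It ranged from -0.076 without control 3 to 0.0024 without control 1. The level of the ratio depends on the length used, but its difference between groups does not. In control the mean log2 ratio was -0.16 per kilobase of exon and 1.03 per kilobase of the longest annotated transcript.

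Wtap (ENSMUSG00000060475, chromosome 17, 12966796 to 12994169, minus strand), the adaptor that brings the heterodimer into nuclear speckles, stood at 73.5, 76.6 and 77.1 CPM in control and 71.1, 75.5 and 72.2 CPM in SAFB KD. SAFB KD 2 lay within the control range, and the log2 fold change of -0.05 was not called (SE 0.037, 95% interval -0.13 to 0.02, edgeR adjusted p = 0.270). With total counts only, Wtap was called lower at -0.09 (adjusted p = 0.0433).

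The scaffold, the anchor and 1 of the recruiters of the writer complex were lower in SAFB KD. Virma (ENSMUSG00000040720, chromosome 4, 11485958 to 11550684, plus strand), the largest subunit of the complex, was at 108.9, 107.6 and 107.2 CPM in control and at 97.3, 90.3 and 95.4 CPM in SAFB KD. All SAFB KD libraries lay below all controls, and the mean fell by 12.6% (log2 fold change -0.19, SE 0.035, edgeR adjusted p = 1.16e-05).

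Zc3h13 (ENSMUSG00000022000, chromosome 14, 75284373 to 75344426, plus strand), which helps to retain the complex in the nucleus, was at 63.9, 61.3 and 63.3 CPM in control and at 54.1, 52.4 and 52.7 CPM in SAFB KD. The groups were again separate, and the mean fell by 15.5% (log2 fold change -0.24, SE 0.040, edgeR adjusted p = 2.24e-06).

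Rbm15 and Rbm15b encode RNA-binding paralogues of the SPEN family that recruit the complex to its sites, and the mRNAs of these paralogues moved in opposite directions. Rbm15b (ENSMUSG00000074102, chromosome 9, 106880918 to 106887428, minus strand) was at 58.0, 58.1 and 59.1 CPM in control and at 46.6, 41.5 and 43.0 CPM in SAFB KD. No library of one group reached the other, and Rbm15b was 1.34-fold lower (log2 fold change -0.42, SE 0.044, edgeR adjusted p = 1.87e-10), the largest change among the 10 genes. Rbm15 (ENSMUSG00000048109, chromosome 3, 107325421 to 107333673, minus strand) was at 36.7, 35.0 and 33.3 CPM in control and at 40.5, 38.1 and 37.2 CPM in SAFB KD. The groups did not overlap, although SAFB KD 3 lay only just above control 1, and the mean was 10.3% higher (log2 fold change 0.14, SE 0.050, 95% interval 0.04 to 0.24, edgeR adjusted p = 0.0242). The call for Rbm15 was lost with DESeq2 (0.13, adjusted p = 0.0624), with total counts only (0.10, adjusted p = 0.132), and when control 2 (0.13), control 3 (0.09, adjusted p = 0.183) or SAFB KD 1 (0.10, adjusted p = 0.138) was left out.

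Within each library, where no scaling between libraries enters, the ratio of Rbm15b to Rbm15 per kilobase was 1.80, 1.89 and 2.02 in control and 1.31, 1.24 and 1.32 in SAFB KD. The ratio was lower in every SAFB KD library, by 1.47-fold on average (log2 difference -0.56). The exact permutation p was 0.1, the smallest that 3 against 3 libraries can give, and 0.15 after adjustment over 3 ratios. Rbm15b thus made up 64.3% to 66.9% of the length-scaled reads of the pair in control and 55.4% to 56.9% in SAFB KD. These shares depend on the length used. In control the mean log2 ratio was 0.93 per kilobase of exon and 0.61 per kilobase of the longest annotated transcript.

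Rbm15b is annotated as a single exon of 6511 bases. It lies within the annotated span of Manf on the same strand, with 14 exonic bases in common, and Manf, a secreted neurotrophic factor gene, was lower too (134.3 ± 4.30 CPM in control, 114.9 ± 4.85 CPM in SAFB KD, mean ± SD of 3 libraries), with a log2 fold change of -0.22 (SE 0.035, edgeR adjusted p = 1.01e-06). Dcaf1, which overlaps the 3′ end of Rbm15b on the opposite strand, had a log2 fold change of 0.03 (edgeR adjusted p = 0.618). Whether transcription through Manf had a part in the fall of Rbm15b was not tested.

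**Figure D2:**
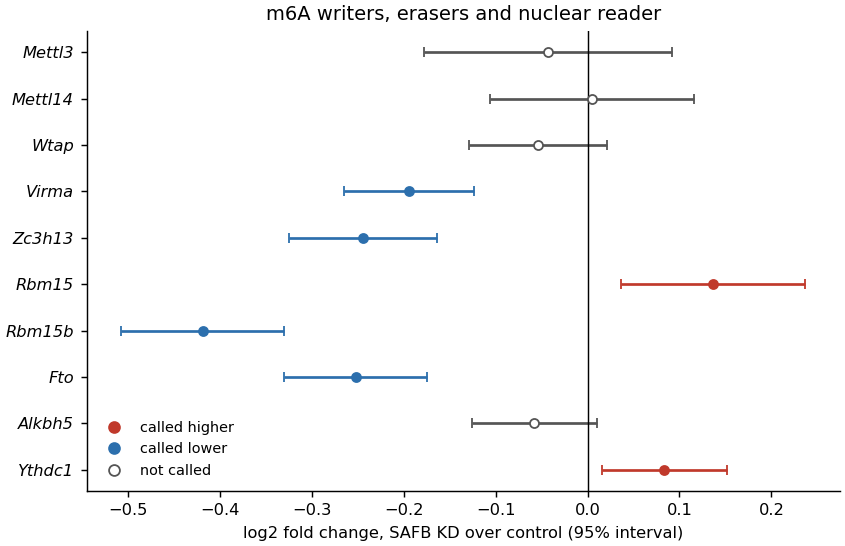
Log2 fold change of SAFB KD over control (x axis) for the 10 genes (y axis), with 95% intervals from the edgeR fit to 3 libraries per group. Blue points were called lower, red points higher and open points not called; Rbm15b stands lowest at -0.42 and Rbm15 highest at 0.14.

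Of the demethylase genes, Fto was lower and Alkbh5 was not called. Fto (ENSMUSG00000055932, chromosome 8, 91313525 to 91668439, plus strand), which encodes the demethylase that also acts on the methylated cap-adjacent adenosine, was at 67.6, 66.4 and 65.4 CPM in control and at 56.4, 55.7 and 55.4 CPM in SAFB KD. The groups were far apart relative to their spread, and the mean fell by 16.0% (log2 fold change -0.25, SE 0.038, edgeR adjusted p = 7.14e-07). Alkbh5 (ENSMUSG00000042650, chromosome 11, 60536381 to 60558512, plus strand), the m6A-selective demethylase, was at 147.1, 139.9 and 137.2 CPM in control and at 139.8, 135.8 and 132.3 CPM in SAFB KD. The ranges overlapped, and the log2 fold change was -0.06 (SE 0.034, 95% interval -0.13 to 0.01, edgeR adjusted p = 0.175). Alkbh5 was called lower without control 3 (-0.09, adjusted p = 0.0316) and with total counts only (-0.10, adjusted p = 0.0220).

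The ratio of Fto to Alkbh5 per kilobase was 0.211, 0.218 and 0.219 in control and 0.185, 0.188 and 0.192 in SAFB KD. It was lower in every SAFB KD library, by -0.19 on the log2 scale (2-sided exact permutation p = 0.1, adjusted p = 0.15 over 3 ratios). Its level depends on the length used. In control the mean log2 ratio was -2.21 per kilobase of exon and -0.81 per kilobase of the longest annotated transcript. Fto is the longest of the 10 genes, with a span of 354915 bases. Its introns hold 4 other tested genes on the same strand, Gm45289, Gm45294, Gm45292 and Gm45293, with 34, 18, 17 and 13 reads over all libraries, and none of them was called (edgeR adjusted p from 0.257 to 0.760).

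Ythdc1 (ENSMUSG00000035851, chromosome 5, 86804221 to 86836659, plus strand), the nuclear reader gene, was at 103.7, 104.6 and 108.4 CPM in control and at 113.5, 109.7 and 112.2 CPM in SAFB KD. Every SAFB KD library lay above every control, but the rise was only 5.92% and near the threshold (log2 fold change 0.08, SE 0.034, 95% interval 0.02 to 0.15, edgeR adjusted p = 0.0433). The call was lost in 8 of 13 alternative settings, among them DESeq2 (0.07, adjusted p = 0.0890), upper-quartile scaling (0.08, adjusted p = 0.0595), the filterByExpr filter (0.07, adjusted p = 0.0587) and total counts only (0.04, adjusted p = 0.340). Leaving out control 1 (0.06, adjusted p = 0.160), control 2 (0.07, adjusted p = 0.219), SAFB KD 1 (0.07, adjusted p = 0.125) or SAFB KD 3 (0.08, adjusted p = 0.118) also ended it.

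**Figure D3:**
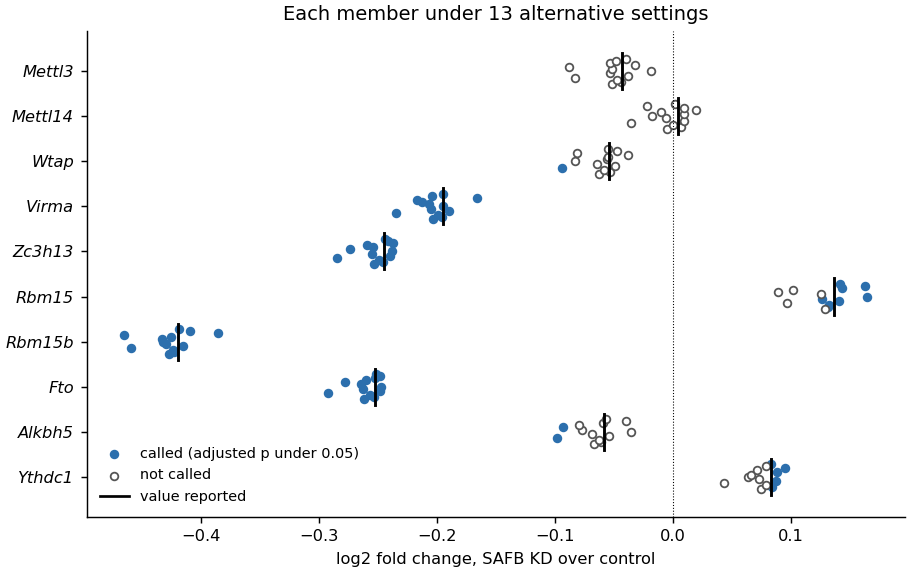
Log2 fold change of SAFB KD over control (x axis) for each of the 10 genes (y axis) under 13 alternative settings (points) and as reported (black bars). Filled points were called and open points were not; Virma, Zc3h13, Rbm15b and Fto were called lower under all 13, Rbm15 was called under 8 and Ythdc1 under 5.

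The levels of the 10 genes were compared per kilobase of exon, the union of all annotated exons. In control cells Alkbh5 was highest at 23.6 ± 0.853 CPM per kb (SD, n = 3), followed by Virma at 15.1 ± 0.120, Wtap at 12.1 ± 0.313 and Zc3h13 between 9.75 and 10.2. Rbm15b at 8.97 ± 0.095, Ythdc1 at 7.73 ± 0.185, Fto at 5.10 ± 0.085 and Rbm15 at 4.71 ± 0.230 CPM per kb came next. The genes of the heterodimer were lowest, with Mettl14 at 3.30 ± 0.069 and Mettl3 at 2.95 ± 0.132 CPM per kb. No neighbours in this order overlapped in range, the closest being Fto, lowest at 5.02, and Rbm15, highest at 4.94 CPM per kb.

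In SAFB KD the order changed in 2 places. Rbm15, at 5.20 ± 0.229 CPM per kb, stood above Fto at 4.28 ± 0.037, with ranges of 5.01 to 5.46 and 4.25 to 4.32. Ythdc1, at 8.19 ± 0.143 CPM per kb, stood above Rbm15b at 6.72 ± 0.403, and came close to Zc3h13 at 8.45 ± 0.149. These orders depend on the length used. Per kilobase of the longest annotated transcript, the control levels were 23.8 for Wtap, 16.7 for Ythdc1, 14.1 for Fto and 6.94 CPM per kb for Mettl3, so that Mettl3 then stood above Mettl14 (3.40) and Rbm15 (5.87), and neither change of order was seen. By that length, Mettl3 (6.75) and Rbm15b (6.72 CPM per kb) were level in SAFB KD, closer than the SD of Rbm15b, whereas Rbm15b stood higher in control (8.97).

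**Figure D4:**
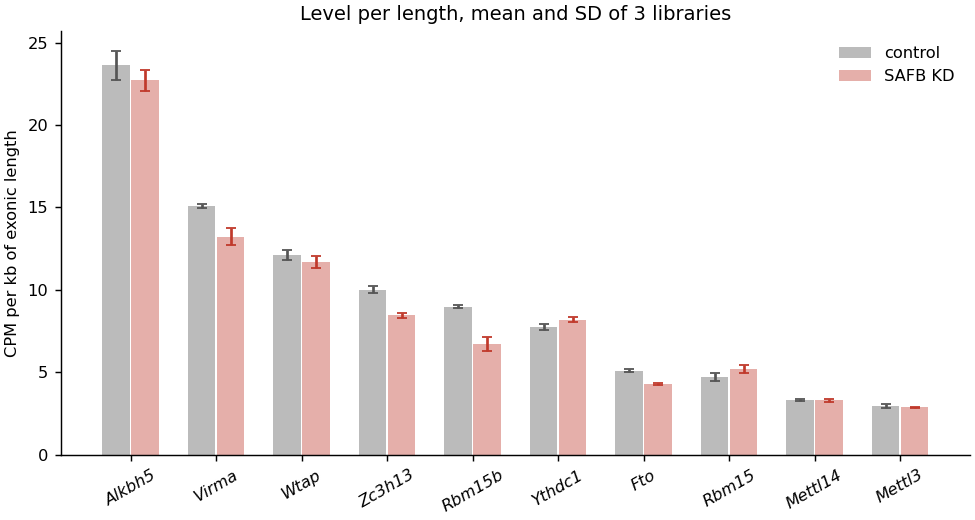
Level per length (y axis, CPM per kilobase of the union of exons, from 0) of the 10 genes, ordered by control level, with bars for the mean and error bars for the SD of 3 libraries per group (control in grey, SAFB KD in red). Alkbh5 is highest at 23.6 and Mettl3 lowest at 2.95 CPM per kb in control, and in SAFB KD Rbm15 stands above Fto and Ythdc1 above Rbm15b.

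The density of GAAGAA over the whole coding sequence varied widely among the 10 genes, around a median of 0.969 matches per kb over 13226 tested coding genes, of which 71.9% held at least 1 match. Mettl14 had 3.65, Wtap 3.36, Zc3h13 3.27 and Ythdc1 2.71 matches per kb, above 93.5%, 92.0%, 91.5% and 87.2% of coding genes. Fto had 1.33 and Virma 1.25 matches per kb. Alkbh5 with 0.842, Rbm15 with 0.692, Mettl3 with 0.574 and Rbm15b with 0.375 matches per kb lay below the median. Genes with a high density included one that was lower (Zc3h13), one called higher (Ythdc1) and a pair that was not called (Mettl14 and Wtap), and Rbm15b, which fell most, had the lowest density. Its coding sequence was GC-rich, at 64.7% against a median of 52.8%, whereas purines made up 62.4% of that of Zc3h13, more than in 98.9% of coding genes. Only coding sequences were searched, not introns, and whether motif density was related to the changes was not tested.

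Mettl3 shares 933 exonic bases with Tox4 on the opposite strand, which stranded counting keeps apart, and Tox4 had a log2 fold change of 0.07 (edgeR adjusted p = 0.199). Ythdc1 shares 631 exonic bases on the same strand with the non-coding gene Gm43055, which had 0 reads, and reads in the shared stretch would be left out of both counts. Apart from Rbm15b, the other members shared no exonic bases with a gene that was tested.

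Other genes of the pathway, 39 in 6 lists, were described by the same fit. The shares called below compare with 41.5% of all tested genes and 65.7% of those at 10 CPM or more. Among 7 other methyltransferases and cofactors, 2 were higher, 1 was lower and 4 were not called (42.9% called), with a median log2 fold change of 0.01. Mettl16, which methylates the U6 snRNA and the Mat2a mRNA, rose 1.36-fold, from 81.7 ± 3.67 to 111.6 ± 2.03 CPM (log2 fold change 0.45, SE 0.036, edgeR adjusted p = 1.48e-13). Trmt112, a cofactor of several methyltransferases, rose by 0.17 (adjusted p = 0.00488), and Mettl4 fell by 0.24 on the log2 scale (adjusted p = 0.00927). Mettl4 was no longer called when control 2 (-0.22), SAFB KD 2 (-0.21) or SAFB KD 3 (-0.21) was left out.

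Spen, the founding member of the family of Rbm15 and Rbm15b, was 1.52-fold lower, from 58.8 ± 4.61 to 38.8 ± 0.946 CPM (log2 fold change -0.60, SE 0.047, edgeR adjusted p = 1.01e-13). It thus fell as Rbm15b did, while Rbm15 was higher.

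Among 13 other readers, 3 were higher, 2 lower and 8 not called (38.5% called), with a median of 0.02. Rbmx, whose product binds RNA that m6A has unfolded, rose 3.09-fold, from 21.2 ± 1.21 to 65.3 ± 2.94 CPM (log2 fold change 1.63, SE 0.050, edgeR adjusted p = 1.34e-26), and was the only gene of the 6 lists called beyond 2-fold. Rbmx has close retrogene copies, and reads that fit them equally well are not in these counts. Hnrnpa2b1, a proposed nuclear reader, fell by 0.17 on the log2 scale (adjusted p = 6.31e-06). Fmr1 was higher by 0.10 (adjusted p = 0.00895) and Hnrnpc, which binds sites opened by the mark, by 0.09 (adjusted p = 0.0156). Fmr1 was called in 10 and Hnrnpc in 8 of 13 alternative settings, and leaving out control 1 brought them to 0.065 and 0.051 (adjusted p = 0.0873 and 0.179). Of the cytoplasmic readers, Ythdf3 was lower (-0.09, adjusted p = 0.0160; -0.08 and 0.0668 without SAFB KD 3), and Ythdf1 and Ythdf2 were not called.

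Of 4 partners of the nuclear reader, Srsf3 and Srsf10, splicing factors that YTHDC1 binds, fell by 0.18 each on the log2 scale (edgeR adjusted p = 1.85e-06 and 7.44e-06). The export receptor gene Nxf1 was called higher at 0.08 (adjusted p = 0.0469), although its groups overlapped. That call was lost in 7 of 13 alternative settings. Cpsf6 was not called (-0.05, adjusted p = 0.177). In all, 75% of the list was called, with a median of -0.11.

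Among 7 AlkB homologues, relatives of Alkbh5 and Fto that act on other substrates, 1 was higher and 6 were not called (14.3% called), with a median of 0.11. The one called was Alkbh7, a mitochondrial member at a low level, which rose from 4.85 ± 0.694 to 7.08 ± 0.545 CPM (log2 fold change 0.53, SE 0.11, edgeR adjusted p = 7.00e-05). Some of this list lay below 10 CPM in control, down to 1.49 CPM, so for them 65.7% is not a like share.

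The methyl donor of the writers is S-adenosylmethionine, and of 7 genes of its cycle 3 were higher, 1 lower and 3 not called (57.1% called), with a median of 0.06. Mat2a, the catalytic subunit of the synthetase, rose from 391 ± 7.79 to 440 ± 3.82 CPM (log2 fold change 0.17, edgeR adjusted p = 5.82e-06), whereas Mat2b, its regulatory subunit, fell from 96.2 ± 3.08 to 83.8 ± 3.90 CPM (-0.20, adjusted p = 2.24e-05). Ahcyl1 was higher by 0.20 (adjusted p = 2.32e-07) and Mtrr by 0.15 (adjusted p = 0.0378), the latter called in 6 of 13 alternative settings.

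**Figure D5:**
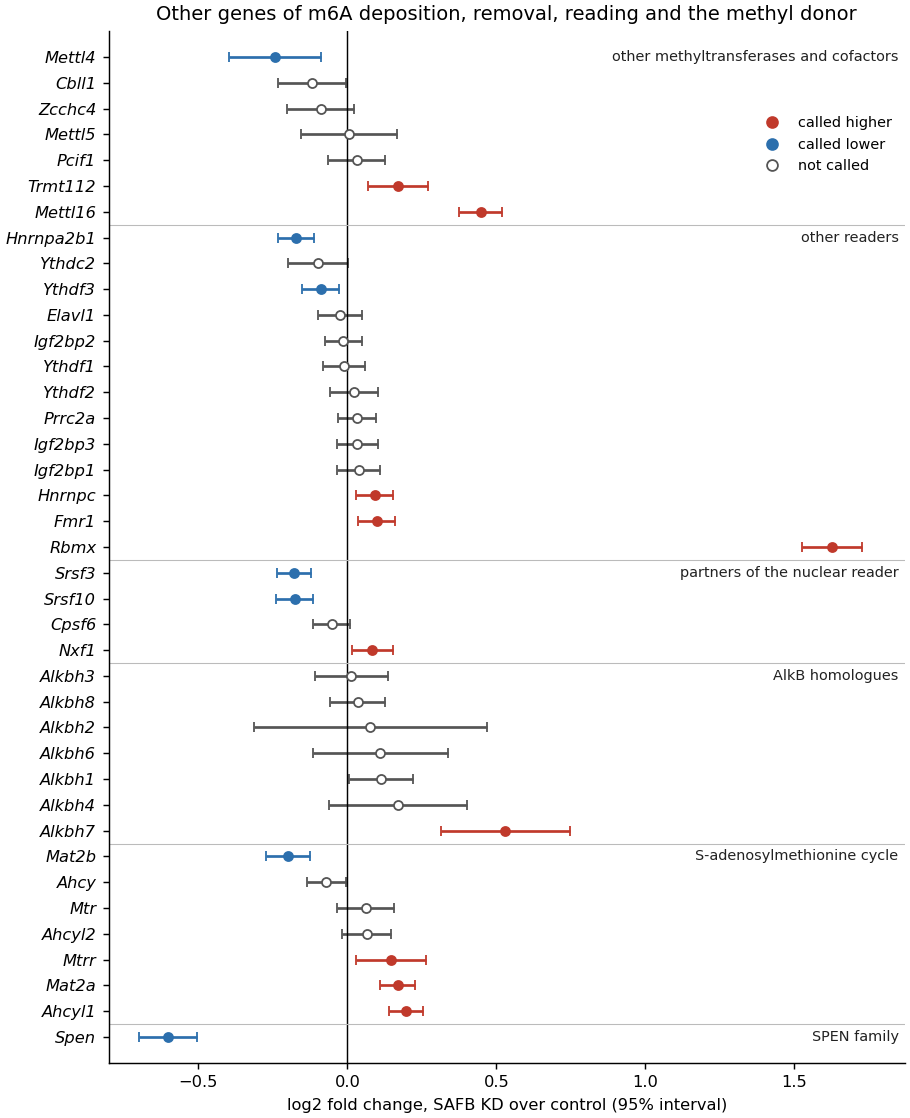
Log2 fold change of SAFB KD over control (x axis) with 95% intervals for 39 other genes of m6A deposition, removal and reading and of the methyl donor (y axis), grouped in 6 lists and ordered within each. Blue points were called lower, red points higher and open points not called; Rbmx stands farthest right at 1.63, followed by Alkbh7 at 0.53 and Mettl16 at 0.45, and Spen farthest left at -0.60.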

How the data were processed

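Poly(A)+ RNA of mouse 3T3 cells was sequenced in strand-specific libraries, 3 control and 3 SAFB KD, grouped by the sample titles. The deposited values were raw counts of reads per gene, in a separate file for each library. The authors aligned trimmed reads to GRCm38 with STAR 2.7.9a. Per the study's methods the aligner counted genes with reverse strandedness, and that the single column of each file is this count is an inference. Such counting keeps unique reads that overlap the exons of 1 gene, so reads shared by overlapping genes or near-identical copies, and reads in introns, are missing. The submitters' processing notes also name deepTools 3.5.1.

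Identifiers were matched, without version, to GENCODE annotation of GRCm38 (54495 matched and 37 did not). This release, which gave the lengths and overlaps, is not the one named for mouse in the study's methods. At least 10 reads summed over 6 libraries were required. After TMM scaling, SAFB KD was tested against control in edgeR 4.0.16 (R 4.3.3) with the quasi-likelihood test and no covariate. P values were adjusted by Benjamini-Hochberg over 19452 genes at a threshold of 0.05, and glmTreat was run against a log2 threshold of 1. The script was tested on simulated data. SE is approximate and set to match the test, and CPM are given with the SD of 3 libraries. Ratios were compared by exact permutation. Alternatives were DESeq2 1.42.0, limma-voom (limma 3.58.1), upper-quartile scaling, total counts only, no filter, filterByExpr, each library left out, and a replicate block. The members and the gene lists were chosen with earlier results of these data known. Named genes were the 10 members, the targets, tested genes that overlap a member, and up to 4 called genes per list with the smallest adjusted p, plus those not called in lists of 4 genes or fewer. Ythdf1, Ythdf2, Ythdf3 and the markers with values were named after their values were seen. No replicate pair held identical values, and every pair differed beyond sampling noise (chi-square over degrees of freedom between 3.92 and 19.6). Replicates are described as biological in the series design.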

Additional observations from a re-analysis of the deposited data

How the results depend on the processing

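Under 13 alternatives the falls of Virma (-0.23 to -0.17), Zc3h13 (-0.28 to -0.24), Rbm15b (-0.47 to -0.39) and Fto (-0.29 to -0.25) stayed called, as did those of Safb, Safb2 and Sltm. Members called higher, 2 as reported, were 0 with DESeq2 and with total counts only, and 1 with upper-quartile scaling and with filterByExpr. With DESeq2, Rbm15 (0.13), Ythdc1 (0.075) and the 1 higher partner of the nuclear reader (0 called) were lost, and Mettl14 was at -0.0047. Beyond 2-fold, 76 genes were higher and 55 lower with DESeq2 and 79 and 58 with limma-voom, against 136 and 102. With upper-quartile scaling, Ythdc1 (0.079) and the higher partner (0 called) were lost. With total counts only, Wtap (-0.094) and Alkbh5 (-0.098) were called lower, Rbm15 (0.097) and Ythdc1 (0.044) were lost, and Mettl14 (-0.036), Ythdf2 (-0.017) and Dcaf1 (-0.014) turned sign. There, 2 other methyltransferases and 2 genes of the S-adenosylmethionine cycle were lower, 1 other reader and 0 partners higher, and 43.6% of all calls were higher against 51.5%. With filterByExpr, Ythdc1 (0.073) was lost, Mettl14 was at -0.0058, 2 other methyltransferases and 2 cycle genes were lower and 0 partners higher. The cause was not tested.

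Over the 6 fits without 1 library, Mettl3 ranged from -0.088 to -0.018, Alkbh5 from -0.093 to -0.036, Mettl14 from -0.022 to 0.020, Rbm15 from 0.089 to 0.17 and Ythdc1 from 0.064 to 0.095. Members called higher ranged from 0 to 2, other methyltransferases lower from 0 to 2, other readers higher from 1 to 3 and lower from 1 to 2, partners higher from 0 to 1, AlkB homologues higher from 1 to 2 and cycle genes lower from 1 to 2. Among genes not called, Ythdf1 ranged from -0.034 to 0.017, Ythdf2 from -0.019 to 0.036, Dcaf1 from -0.0094 to 0.032 and Gm45294, with 18 reads, from -1.30 to 0.72. The labels share replicate numbers between groups, but libraries with the same number did not deviate together (correlations 0.0519, 0.00635 and -0.00871). A replicate block changed no call of a member (Rbm15b -0.42, Rbm15 0.14, Ythdc1 0.08), with 4186 genes higher and 3931 lower.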
